A study of Sus scrofa with 24 samples.

Results

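Intramuscular and subcutaneous adipocytes of the pig were compared at the end of their differentiation in culture, on day 8, by the small RNA libraries of the 3 BF-8d and the 3 IMF-8d samples. BF-8d are adipocytes grown from back subcutaneous fat and IMF-8d are adipocytes grown from the longissimus dorsi muscle, both of six-day-old Yorkshire piglets. The table lists 1587 entries, and the 430 that averaged 1 TPM or more across the 24 libraries of the series were taken, 270 of them known porcine miRNAs (names beginning with ssc) and 160 entries predicted by the authors as new miRNAs, which carry a number. TPM is the authors' name for reads per 1000000 reads counted on listed miRNAs. Between 99.97% and 99.98% of the reads of each day 8 library fell on the 430 entries. The other libraries are those of days 0, 2 and 4. The 6 of day 0, taken before induction, were compared with those of day 8 by a test, and those of days 2 and 4 are described for a few miRNAs. Preadipocytes of 3 piglets were isolated by collagenase digestion and filtering, with no sorting of cells named in the methods, and were induced with 3-isobutyl-1-methylxanthine, dexamethasone and insulin, the same cocktail for both groups. The muscle was digested for longer and with more enzyme than the fat, so tissue of origin and digestion cannot be told apart. The labels do not link a library to a piglet, so every p-value below measures the spread between these libraries, which may be technical.

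A miRNA is a short RNA that pairs with sites in mRNAs through its seed, bases 2 to 8 from the 5′ end, and lowers the output of those mRNAs. miRNAs with a shared seed form a family with largely shared targets, and miRNAs cut from one primary transcript form a cluster whose members usually move together. In fat cells, miRNAs such as miR-378, miR-143 and the miR-30 family are known to accompany or promote adipogenesis, while miR-27, miR-130, miR-138, miR-155, miR-221 and miR-222 are known to hold it back. Several miRNAs carry a memory of where a cell came from, in particular those inside the HOX gene clusters and those of the imprinted DLK1-DIO3 region.

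The mature sequences below belong to the miRNAs on which the results turn, with the seed in capitals. Of the 430 entries, 339 have a mature sequence in the sources used here, 336 of them from the study's list of miRNAs and 3 from the RefSeq annotation of Sscrofa11.1. The first set shows the HOX-cluster miRNAs, because ssc-miR-196b-5p and ssc-miR-196a share a seed and were both higher in IMF-8d, and ssc-miR-10a-5p and ssc-miR-10b share another while only the first was called.
ssc-miR-196b-5p: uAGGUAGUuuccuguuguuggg
ssc-miR-196a: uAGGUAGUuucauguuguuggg
ssc-miR-10a-5p: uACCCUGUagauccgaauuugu
ssc-miR-10b: uACCCUGUagaaccgaauuugu
The second set shows miRNAs of the DLK1-DIO3 region and 3 entries that the authors predicted as new, encoded beside some of them. All are higher in IMF-8d, each with its own seed. Whether the 3 entries are known miRNAs of other species was not tested.
ssc-miR-381-3p: uAUACAAGgacaagcucucugu
ssc-miR-127: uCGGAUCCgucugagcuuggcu
ssc-miR-758: uUUGUGACcugguccacuaac
ssc-miR-411: aUGUAACAcgguccacuaac
ssc-miR-370: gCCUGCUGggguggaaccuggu
novel_miR_461: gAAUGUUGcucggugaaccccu
novel_miR_716: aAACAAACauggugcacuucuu
novel_miR_638: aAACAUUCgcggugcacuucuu
The third set holds the miRNAs of 2 polycistrons and of 1 family that were lower in IMF-8d. The seeds of ssc-miR-182 and ssc-miR-96-5p have their first 6 letters in common, and those of ssc-miR-221-3p and ssc-miR-222 are identical, as are those of ssc-miR-17-5p and ssc-miR-106a.
ssc-miR-183: uAUGGCACugguagaauucacug
ssc-miR-182: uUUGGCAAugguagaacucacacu
ssc-miR-96-5p: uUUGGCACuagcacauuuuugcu
ssc-miR-221-3p: aGCUACAUugucugcuggguuu
ssc-miR-222: aGCUACAUcuggcuacugggucuc
ssc-miR-17-5p: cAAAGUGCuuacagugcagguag
ssc-miR-106a: aAAAGUGCuuacagugcagguagc
The last set holds single miRNAs with large differences, the pair ssc-miR-146a-5p and ssc-miR-146b with a common seed, and 2 new entries found almost solely in the BF-8d libraries of day 8.
ssc-miR-378: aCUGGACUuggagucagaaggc
ssc-miR-218: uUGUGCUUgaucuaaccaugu
ssc-miR-29b: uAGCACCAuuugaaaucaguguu
ssc-miR-138: aGCUGGUGuugugaaucaggc
ssc-miR-708-5p: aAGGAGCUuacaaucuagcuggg
ssc-miR-708-3p: cAACUAGAcugugagcuucuaga
ssc-miR-146a-5p: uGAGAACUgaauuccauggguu
ssc-miR-146b: uGAGAACUgaauuccauaggc
novel_miR_848: cGUGGAUAucuacuuugc
novel_miR_623: cAAUGCAGcuagaaaaacu

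The BF-8d libraries held 12836120, 6201608 and 4954845 reads on miRNAs and the IMF-8d libraries 13116080, 14961353 and 13011973, so that 3 reads, used as the floor of a library, were worth from 0.201 to 0.605 TPM. Such floors and all counting intervals below cover counting error only, since PCR copies were not told from separate molecules. Replicate 1 stood apart in both groups: compared by chi-square over the 430 entries, it differed from the other 2 libraries by 1015 and 1325 per degree of freedom in BF-8d, where the other pair gave 108, and 898 and 1234 in IMF-8d, where the other pair gave 188. The counts of DE-miRNAs are therefore also given without it. Of the 430 entries, 13 had 0 reads in some day 8 library and 18 averaged under 1 TPM over the 6 libraries of day 8. The entries just inside the limit of 1 TPM had means from 1.002 to 1.01 TPM over the 24 libraries, and those just outside from 0.973 to 0.990 TPM.

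The first question was how many miRNAs distinguish the adipocytes of the 2 sources once differentiated. With limma on log2(TPM + 1), and DE-miRNAs defined by an FDR (Benjamini-Hochberg) below 0.05 with more than a 1.5-fold change, 160 of 430 entries were DE-miRNAs (37.2%). In IMF-8d 52 of them were higher (12.1% of the entries) and 108 were lower (25.1%). Known miRNAs were higher in 28 and lower in 75 of 270 cases, 38.1% together, and new entries were higher in 24 and lower in 33 of 160, 35.6% together. Of the 33, 10 are entries with 0 reads on day 0 that reached the limit of 1 TPM only through subcutaneous libraries, and without them 23 of 150 new entries and 98 of all 420 entries were lower. The 3 libraries of IMF-8d lay all above or all below those of BF-8d for 220 entries (51.2%), 70 of them above (16.3%) and 150 below (34.9%). Fold changes are given on the log2(TPM + 1) scale as IMF minus BF, and they understate the change of miRNAs with low values.

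The balance of directions differed between scalings. TPM values are shares of a total. The share of ssc-miR-21-5p alone was between 27.9% and 45.0% in the day 8 libraries. The median log2 fold change of the 430 entries was -0.28 in TPM and -0.059 after median-of-ratios scaling, a shift of 0.22. After that scaling 151 entries were called (35.1%), 82 higher (19.1%) and 69 lower (16.0%) in IMF-8d. None of the 52 calls of higher values was lost, 39 of the 108 calls of lower values were, and 30 further entries were called higher. No entry was called in opposite directions by the 2 scalings. By all of 4 fits, limma with either scaling, edgeR and DESeq2, 114 entries were called in a single direction (26.5%), 51 higher and 63 lower in IMF-8d. The 69 and the 63 lower entries both include the 10 entries with 0 reads on day 0, whose direction was fixed by the filter. Without replicate 1 of both groups, an alternative chosen after seeing the data, 194 DE-miRNAs were called in TPM, 53 higher and 141 lower. Unless it is said otherwise, each difference named below was called with both scalings.

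**Figure D1:**
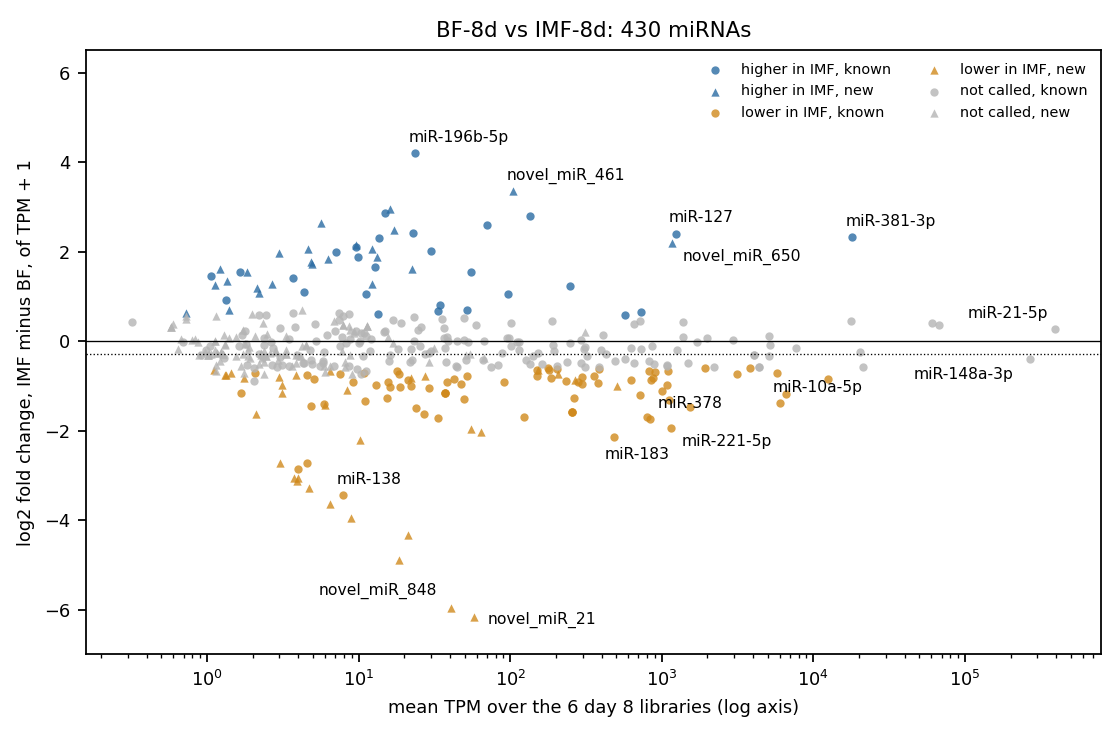
Each point is 1 of the 430 entries, placed by its mean TPM over the 6 day 8 libraries (horizontal log axis) and its log2 fold change of TPM + 1, IMF minus BF (vertical axis), with circles for known and triangles for new miRNAs and colours for the call. The dotted line is the median of -0.28, and the largest positive value is the 4.21 of ssc-miR-196b-5p. The largest negative value is the -6.16 of novel_miR_21, an entry whose direction was fixed by the filter.

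The largest coherent group of miRNAs higher in intramuscular adipocytes came from the DLK1-DIO3 region, an imprinted locus whose miRNAs are expressed from the maternal chromosome. All 13 tested members of the 19 listed were higher in IMF-8d in TPM, where 12.1% of all entries were higher. The same 13 were higher after median-of-ratios scaling, where 19.1% of all entries were. Their median log2 fold change in TPM was 2.30, with a range from 1.41 to 2.87, while the median over all entries was -0.28. Together the 19 entries made up 0.649% of miRNA reads in BF-8d and 3.27% in IMF-8d, and their summed level ran from 5634 to 7216 TPM in the former and from 27350.1 to 35732 TPM in the latter. ssc-miR-381-3p, the most abundant member, had 6714, 6139 and 5164 TPM in BF-8d and 24748, 32214 and 33184 TPM in IMF-8d. Every intramuscular library thus exceeded every subcutaneous library, by 5.0-fold in the means, and limma gave a log2 fold change of 2.32 (SE 0.20, adjusted p = 8.04e-07). ssc-miR-127, known for targeting the retrotransposon-derived gene RTL1 on the opposite strand, measured 418, 386 and 374 TPM in BF-8d against 2018, 2204 and 2011 TPM in IMF-8d (log2 fold change 2.40, SE 0.15, adjusted p = 5.09e-08). Both groups were tight for this miRNA, with an SD of 23.0 TPM in BF-8d and 109.7 TPM in IMF-8d.

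Less abundant members of the region showed differences of the same order. ssc-miR-758 was at 30.1, 40.2 and 30.3 TPM in BF-8d and at 226, 244 and 243 TPM in IMF-8d, and ssc-miR-411 at 2.03, 1.93 and 5.05 TPM against 33.5, 22.6 and 24.8 TPM. Their log2 fold changes were 2.80 and 2.87, the largest of the list. For ssc-miR-370 the BF-8d libraries were less uniform, at 10.2, 26.0 and 25.0 TPM, yet all lay under the 133, 135 and 93.4 TPM of IMF-8d (log2 fold change 2.59, SE 0.30, adjusted p = 1.13e-05). Among the remaining members, ssc-miR-136-3p, ssc-miR-432-5p, ssc-miR-493-5p and ssc-miR-323 had log2 fold changes of 2.42, 2.30, 2.01 and 1.64, and ssc-miR-382, ssc-miR-299, ssc-miR-493-3p and ssc-miR-136-5p of 2.09, 1.98, 1.87 and 1.41. Both arms of the miR-493 and miR-136 hairpins were therefore higher in the intramuscular cells.

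All of these miRNAs but ssc-miR-758, whose precursor had no exact match, were placed in Sscrofa11.1, in 2 blocks. Precursors of ssc-miR-493, ssc-miR-127, ssc-miR-432 and ssc-miR-136 lie at chr7:121697837-121711409 on the plus strand, and that of ssc-miR-370 starts at position 121736893 of the same chromosome, in an exon of a long noncoding RNA gene. ssc-miR-411, ssc-miR-323, ssc-miR-381-3p, ssc-miR-382 and ssc-miR-299 lie on an unplaced scaffold, between its positions 30003 and 70569, together with 9 new entries whose precursors start within 10000 bases of the next. All 14 entries of this block were higher in IMF-8d, where 12.1% of all entries were higher. The known ones are also among the 13 above. The median log2 fold change of the block was 1.87. Among its new entries, novel_miR_461 stood at 13.2, 17.7 and 23.6 TPM in BF-8d and at 221, 173 and 178 TPM in IMF-8d, a 10.5-fold difference of the means (log2 fold change 3.35, SE 0.21, adjusted p = 5.24e-08). novel_miR_716 had 2.49, 4.35 and 2.22 TPM against 35.2, 28.7 and 24.4 TPM. novel_miR_638 had 0.857, 1.29 and 0.404 TPM against 10.5, 12.5 and 8.30 TPM. As 1 of its BF-8d libraries held only 2 reads, its ratio of pooled reads, 12.04, carried a 95% counting interval from 7.78 to 19.7 (exact binomial). Its mean in BF-8d was under 1 TPM, and novel_miR_966 of the same block had 4 reads over BF-8d and 96 over IMF-8d. The filter kept both through libraries other than BF-8d and so favoured their direction, which carries little weight as evidence.

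The largest positive value was that of ssc-miR-196b-5p, a miRNA of the HOX gene clusters that represses HOX mRNAs. It was at 1.64, 1.13 and 1.82 TPM in BF-8d and at 53.8, 44.4 and 39.0 TPM in IMF-8d. The intramuscular mean was 30.0-fold higher, with a log2 fold change of 4.21 (SE 0.22, adjusted p = 1.02e-08). Its seed partner ssc-miR-196a, known to promote brown fat cell formation, was at 0.467, 0.322 and 0.202 TPM in BF-8d, near the level of a few reads, and at 4.50, 2.54 and 1.92 TPM in IMF-8d. For ssc-miR-196a the ratio of pooled reads was 7.92, with a counting interval from 4.04 to 17.7. Its BF-8d libraries were all under the limit of 1 TPM. The filter kept it through other libraries and so favoured its direction, which carries little weight as evidence.

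Another HOX-cluster miRNA pointed the other way. ssc-miR-10a-5p measured 8641, 7889 and 9438 TPM in BF-8d and 3626, 3090.0 and 3266 TPM in IMF-8d (log2 fold change -1.38, SE 0.17, adjusted p = 2.07e-05). ssc-miR-10b, which has the same seed and is encoded in a different HOX cluster, was at 22926, 18027 and 25831 TPM in BF-8d and at 19538, 17011 and 18849 TPM in IMF-8d. These groups overlapped and the difference was not called (adjusted p = 0.323, 95% interval of the log2 fold change from -0.70 to 0.18). ssc-miR-615, in an intron of HOXC5, was at 26.3 TPM ± 3.40 (SD, n = 3) in BF-8d and 24.3 ± 2.85 (SD, n = 3) in IMF-8d and was not called either. Of the 6 tested HOX-cluster miRNAs, 2 were higher, 1 was lower and 3 were not called, where 12.1% of all entries were higher and 25.1% lower. The 2 higher include ssc-miR-196a, which the filter kept through libraries other than BF-8d.

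**Figure D2:**
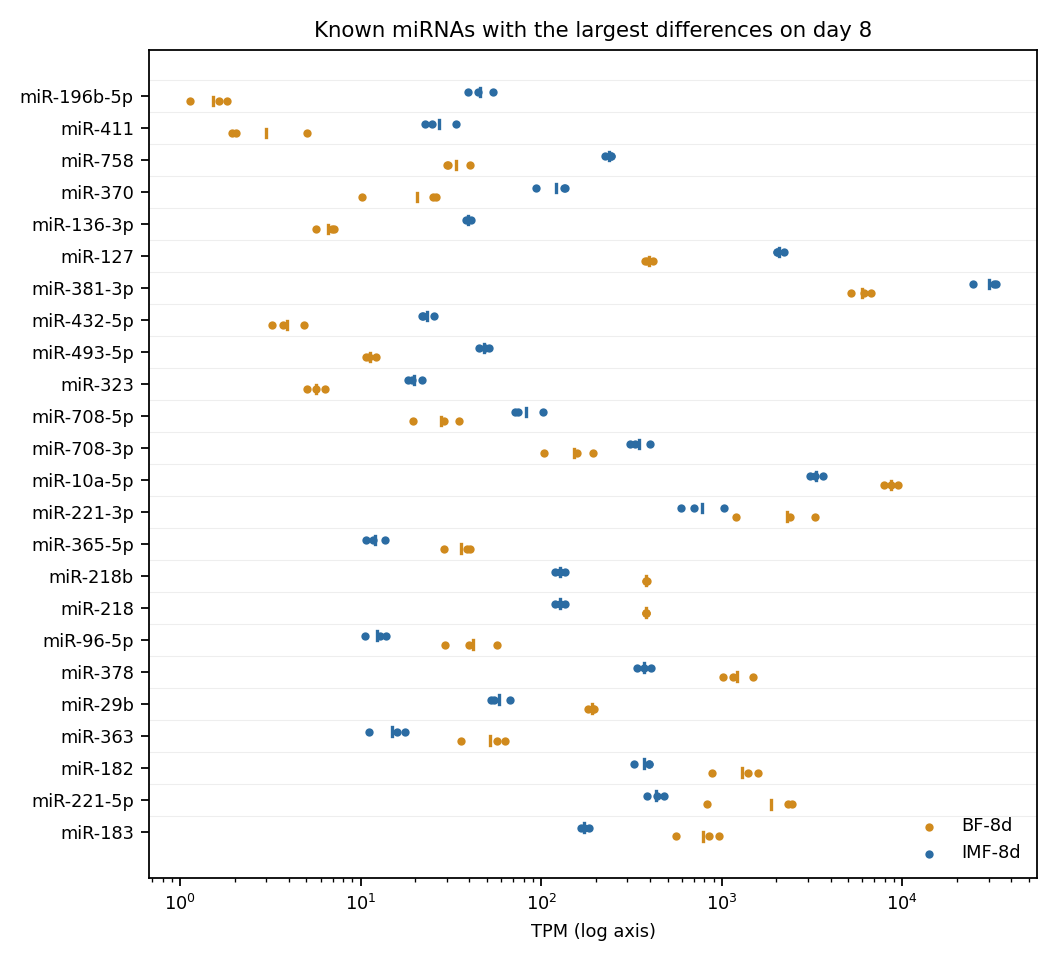
The known miRNAs with the largest differences among DE-miRNAs of at least 10 TPM and no overlap, 12 in each direction: points are the TPM of single libraries (log axis), vertical bars the mean of 3, BF-8d in orange and IMF-8d in blue. ssc-miR-196b-5p is at 1.13 to 1.82 TPM in BF-8d and at 39.0 to 53.8 TPM in IMF-8d, and the groups of ssc-miR-221-3p come closest, 1195 TPM against 1029 TPM.

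Several further miRNAs were more abundant in intramuscular adipocytes. Both arms of the miR-708 hairpin, encoded in an intron of TENM4, were higher: ssc-miR-708-3p had 194, 157 and 103 TPM in BF-8d and 309, 329 and 399 TPM in IMF-8d, and ssc-miR-708-5p had 19.6, 29.0 and 34.9 TPM against 102, 71.1 and 74.1 TPM. The 5p arm differed by 1.55 and the 3p arm by 1.23 on the log2 scale (adjusted p = 1.00e-04 and 4.66e-04). ssc-miR-335 lies in an intron of MEST, an imprinted gene known to rise with the enlargement of fat cells, and was at 6.31, 7.42 and 6.46 TPM against 15.6, 19.7 and 11.14 TPM (log2 fold change 1.06, SE 0.23, adjusted p = 0.00221). ssc-miR-146b, a brake on NF-kB signalling, was at 77.0, 56.6 and 53.3 TPM against 151, 124 and 114 TPM (log2 fold change 1.06, SE 0.19, adjusted p = 5.18e-04). The other inflammation miRNA with a call, ssc-miR-155-5p, known to be induced by immune signals and to restrain adipogenesis, was lower in IMF-8d, at 890.4, 681 and 592 TPM against 1069, 1497 and 1731 TPM in BF-8d. ssc-miR-146a-5p, with the seed of ssc-miR-146b, had overlapping groups, at 466, 576 and 645 TPM against 985, 682 and 557 TPM. It was not called in TPM (adjusted p = 0.178) and was called higher in IMF-8d after median-of-ratios scaling (log2 fold change 0.66, adjusted p = 0.0119).

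miRNAs of smooth muscle and matrix-producing cells were called in both directions. ssc-miR-145-5p, which holds back adipogenesis in culture and marks contractile cells, was at 472, 599 and 655 TPM in BF-8d and at 899, 950.2 and 819 TPM in IMF-8d (log2 fold change 0.64, SE 0.17, adjusted p = 0.00747). Without replicate 1 of BF-8d its log2 fold change was 0.50 and the fold criterion was missed. Its cluster partner ssc-miR-143-3p, which promotes adipogenesis, was at 59577 TPM ± 17265 (SD, n = 3) in BF-8d and 75311 ± 10317 (SD, n = 3) in IMF-8d and was not called. ssc-miR-29b, a repressor of collagen mRNAs, was lower in IMF-8d, at 52.8, 67.2 and 54.5 TPM against 194, 180.4 and 196 TPM in BF-8d (log2 fold change -1.70, SE 0.16, adjusted p = 1.97e-06). Of the 16 tested mesenchymal miRNAs 3 were higher and 3 lower in TPM, a called share of 37.5% that is near the 37.2% of all entries, and 6 were higher and 1 lower after median-of-ratios scaling, where 19.1% of all entries were higher and 16.0% lower. ssc-miR-199b-5p was lower in TPM (log2 fold change -0.85, adjusted p = 0.00147), a call lost after that scaling, where the value was -0.56.

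Among the miRNAs lower in intramuscular adipocytes, the polycistron of ssc-miR-183, ssc-miR-182 and ssc-miR-96-5p, known from sensory cells, had all 3 members called. Over all entries 25.1% were lower in TPM and 16.0% after median-of-ratios scaling. The polycistron lies at chr18:18982269-18986913 on the plus strand. ssc-miR-183 measured 961, 557 and 844 TPM in BF-8d and 183, 165 and 172 TPM in IMF-8d, a 4.55-fold difference of the means (log2 fold change -2.14, SE 0.20, adjusted p = 1.40e-06). ssc-miR-182 measured 1394, 885 and 1590.0 TPM against 394, 326 and 396 TPM, and ssc-miR-96-5p 29.2, 39.7 and 56.9 TPM against 13.7, 12.8 and 10.5 TPM. The log2 fold changes of ssc-miR-182 and ssc-miR-96-5p were -1.75 and -1.64, so the 3 members differed alike although their abundances did not.

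Another polycistron, on the X chromosome at chrX:40571068-40571887 on the minus strand, encodes ssc-miR-221-5p, ssc-miR-221-3p and ssc-miR-222, which act on the cell cycle inhibitor CDKN1B and on KIT and are known to fall during adipogenesis. ssc-miR-221-5p had 825, 2435 and 2332 TPM in BF-8d and 479, 438 and 384 TPM in IMF-8d (log2 fold change -1.95, SE 0.32, adjusted p = 2.86e-04). ssc-miR-221-3p had 1195, 2382 and 3289 TPM against 1029, 697 and 597 TPM, and ssc-miR-222 had 989.6, 1460.1 and 2357 TPM against 873, 541 and 459 TPM. Replicate 1 of BF-8d was the lowest of its group and replicate 1 of IMF-8d the highest of its own for all 3, but the groups did not overlap. Their log2 fold changes were -1.95, -1.48 and -1.32. In BF the mean of their sum was 1595 TPM on day 0 and 5755 TPM on day 8. In IMF it was 1415 and 1833 TPM, so neither source had a lower mean on day 8 than on day 0. The change of the sum within a source was not tested.

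Among miRNAs known to promote or to restrain fat cell formation, most of the calls were of lower values in IMF-8d. Of 20 tested pro-adipogenic miRNAs, 1 was higher and 6 were lower in IMF-8d, with a median log2 fold change of -0.21, and of 14 tested anti-adipogenic miRNAs 1 was higher and 6 were lower, with a median of -0.46. Over all entries 12.1% were higher and 25.1% lower, with a median of -0.28, so the share of pro-adipogenic miRNAs with a call was near that of all entries and the share of anti-adipogenic ones was above it. After median-of-ratios scaling the counts were 2 higher and 4 lower of the former, and 1 higher and 6 lower of the latter. There 19.1% of all entries were higher and 16.0% lower. Of the 6 lower anti-adipogenic calls, 3 are entries of the polycistron of miR-221 and miR-222 with either scaling. These 3 are not independent. ssc-miR-378, which is encoded with the metabolic coactivator PPARGC1B and promotes lipid storage, measured 1479.7, 1153 and 1012 TPM in BF-8d and 340.1, 369 and 404 TPM in IMF-8d (log2 fold change -1.69, SE 0.17, adjusted p = 4.07e-06). The least of the subcutaneous libraries exceeded the greatest of the intramuscular ones in all comparisons of single libraries. ssc-miR-30d, of the pro-adipogenic miR-30 family, was at 7518, 8617 and 11493 TPM in BF-8d and 4952, 3489 and 3599.8 TPM in IMF-8d (log2 fold change -1.19, adjusted p = 4.66e-04), called with both scalings. Of the 10 tested entries of that family 2 were lower and none was higher in TPM, a smaller share than the 25.1% of all entries, and after median-of-ratios scaling 2 were lower and 1 was higher.

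On the anti-adipogenic side, ssc-miR-138, known to restrain both adipogenic and osteogenic differentiation, was at 14.8, 12.6 and 18.4 TPM in BF-8d and at 0.610, 0.535 and 0.307 TPM in IMF-8d, a 31.5-fold difference of the means (log2 fold change -3.44, SE 0.23, adjusted p = 7.79e-08). It was the largest negative value among known miRNAs. All IMF-8d libraries of ssc-miR-138 were under the limit of 1 TPM. The filter kept it through other libraries and so favoured its direction, which carries little weight as evidence. ssc-miR-363 had 36.1, 62.9 and 56.5 TPM against 17.5, 15.9 and 11.07 TPM (log2 fold change -1.72, SE 0.24, adjusted p = 6.77e-05). Of the brown-fat miRNAs, ssc-miR-365-5p was lower in IMF-8d, at 13.6, 10.7 and 11.8 TPM against 29.1, 38.9 and 40.4 TPM, while ssc-miR-196a was higher as given above. ssc-miR-455-5p was lower in TPM (log2 fold change -0.63), and this call was lost after median-of-ratios scaling.

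miR-218 has 2 genes, in introns of SLIT2 and SLIT3, genes of axon guidance cues, and acts on the osteogenic and Wnt programmes. ssc-miR-218 was at 381, 382 and 379 TPM in BF-8d and at 135, 126 and 119.6 TPM in IMF-8d (log2 fold change -1.58, SE 0.15, adjusted p = 1.58e-06). The libraries within BF-8d were close together, with an SD of 1.53 TPM. The entries ssc-miR-218-5p and ssc-miR-218b share its mature sequence up to the last base and carry nearly the same values, so the reads of the 3 entries cannot be told apart and count as a single observation. ssc-miR-34a, a p53 target, was at 321, 397 and 406 TPM against 166, 144 and 152 TPM (log2 fold change -1.27, SE 0.16, adjusted p = 2.69e-05). The call of its family member ssc-miR-34c (-0.73) was lost after median-of-ratios scaling.

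All 10 tested entries of the miR-17-92 cluster and its paralogs, which MYC and E2F factors drive in proliferating cells, were lower in IMF-8d in TPM, with a median log2 fold change of -0.88 and a range from -1.72 to -0.72, where 25.1% of all entries were lower. Their median was -0.60 after median-of-ratios scaling, where 6 of the 10 were still called and 16.0% of all entries were lower. ssc-miR-17-5p was at 245, 329.8 and 334 TPM in BF-8d and 177, 163 and 143 TPM in IMF-8d (log2 fold change -0.90, SE 0.17, adjusted p = 9.19e-04), and was not called by edgeR. ssc-miR-92a, ssc-miR-20a-5p and ssc-miR-19b, with log2 fold changes of -0.83, -0.80 and -0.85 in TPM, kept their direction and missed the fold criterion after median-of-ratios scaling. On the X chromosome, at chrX:110113549-110114468, the paralogous cluster of ssc-miR-106a, ssc-miR-20b, ssc-miR-19b, ssc-miR-92a and ssc-miR-363 had all 5 entries called lower in TPM. ssc-miR-106a was at 5.30, 12.9 and 9.08 TPM against 2.97, 2.81 and 2.15 TPM.

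Farther along the X chromosome, at chrX:110381587-110387981, the cluster of miR-424, miR-503, miR-450 and miR-542 had 6 of 10 tested entries lower in IMF-8d and none higher in TPM, beside 25.1% lower over all entries. miR-424 and miR-503 act on cell cycle mRNAs. Both arms of miR-424 were called, with log2 fold changes of -0.96 for ssc-miR-424-5p and -0.91 for ssc-miR-424-3p, while ssc-miR-503 missed the fold criterion (-0.58, adjusted p = 0.0353). ssc-miR-450b-5p was at 1494, 1355 and 1287 TPM in BF-8d and 596, 688 and 619 TPM in IMF-8d (log2 fold change -1.12, SE 0.15, adjusted p = 5.73e-05). ssc-miR-542-3p was at 1162, 1015 and 847 TPM against 356, 519 and 438 TPM (log2 fold change -1.21, SE 0.18, adjusted p = 1.42e-04). The calls of ssc-miR-450c-5p and ssc-miR-450a, with log2 fold changes of -0.68 and -0.66, were lost after median-of-ratios scaling, which left 4 of the 10. Another cluster of that chromosome, of miR-532, miR-362, miR-500 and miR-660, had a summed level of 1895 TPM ± 357 (SD, n = 3) in BF-8d and 1887 ± 171 (SD, n = 3) in IMF-8d, with 2 of 6 tested entries higher and none lower in TPM and 3 higher after median-of-ratios scaling, where 12.1% and 19.1% of all entries were higher, respectively. There ssc-miR-500-5p was at 24.1, 23.4 and 27.0 TPM in BF-8d and at 45.4, 45.9 and 40.8 TPM in IMF-8d (log2 fold change 0.80, SE 0.17, adjusted p = 0.00203).

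In the other families the calls were few or depended on the scaling, and their counts stand beside 12.1% higher and 25.1% lower over all entries in TPM. Of the 11 tested entries of the let-7 and miR-98 family, which rise as cells leave proliferation, 3 were lower in TPM, among them ssc-let-7f-5p and ssc-let-7a, while after median-of-ratios scaling none was lower and 2 were higher. The miR-15, miR-16, miR-195 and miR-497 family had 1 lower entry of 5, ssc-miR-16, whose call was lost with that scaling. In the miR-23, miR-24 and miR-27 clusters 1 of 8 entries was lower, ssc-miR-24-3p, and again not after that scaling. The miR-148 and miR-152 family had 2 of 5 entries lower, both arms of ssc-miR-148b, with a log2 fold change of -0.61 for the 3p arm, both lost in the same way. Of 3 tested miR-181 entries 1 was lower, ssc-miR-181d-5p, at 10.7, 7.42 and 7.22 TPM against 13.7, 18.2 and 20.6 TPM. Of the CREB-induced pair, ssc-miR-212 was lower (log2 fold change -1.02, adjusted p = 0.00376) and ssc-miR-132 was not called. Neither ssc-miR-224 nor ssc-miR-452 was called in TPM, and ssc-miR-452 was called higher after median-of-ratios scaling. In the miR-99, miR-100 and miR-125 families 2 of 6 entries were higher and 1, ssc-miR-99b, was lower in TPM, with 4 higher and none lower after median-of-ratios scaling. ssc-miR-125b was the more abundant of the entries higher in TPM, at 377, 503 and 469 TPM against 879.5, 619.9 and 557 TPM (log2 fold change 0.59, adjusted p = 0.0269), and its log2 fold change was 0.27 and no longer called without replicate 1 of both groups.

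**Figure D3:**
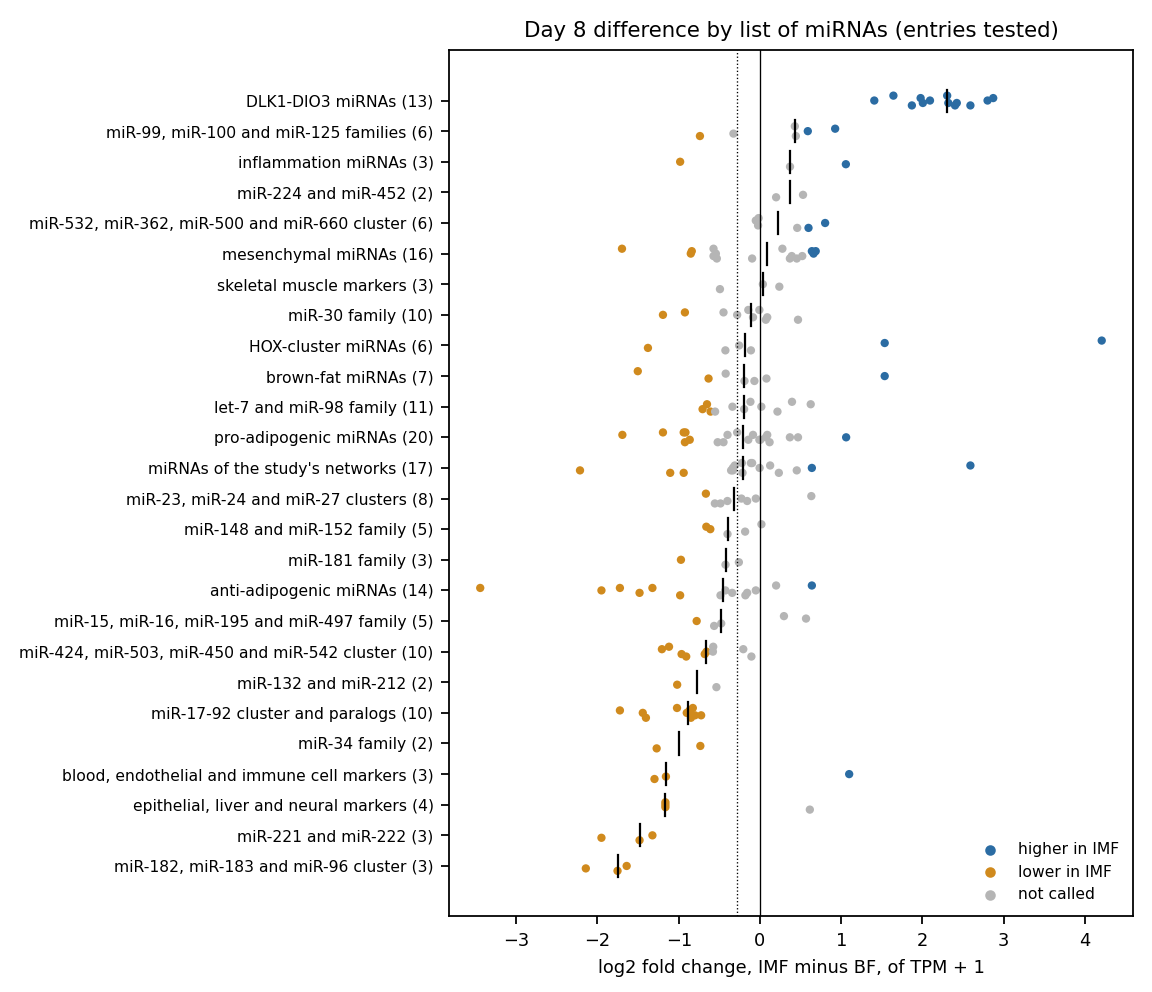
Log2 fold changes of TPM + 1 on day 8, IMF minus BF (horizontal axis), of the tested members of 26 lists of miRNAs (rows, with the number tested), each point an entry coloured by its call, each short bar the median of its list, the dotted line the median of all 430 entries, -0.28. The DLK1-DIO3 list has its median at 2.30 with all 13 entries called higher, where 12.1% of all entries were higher. The cluster of miR-182, miR-183 and miR-96 lies at the other end with a median of -1.75.

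The 10 most abundant entries of a library made up from 86.2% to 90.9% of its reads on day 8. Of the 10 miRNAs with the highest mean over the 6 libraries, ssc-miR-381-3p was higher and ssc-miR-199b-5p lower in IMF-8d, and the other 8 were not called in TPM. ssc-miR-21-5p, a miRNA of growth and fibrosis, was at 355029 TPM ± 66398 (SD, n = 3) in BF-8d and 425302 ± 28547 (SD, n = 3) in IMF-8d (adjusted p = 0.440, 95% interval of the log2 fold change from -0.33 to 0.88). ssc-miR-148a-3p, which promotes adipogenesis by way of WNT1, was at 378352, 277444 and 254105 TPM against 177613, 247593 and 264570.5 TPM (adjusted p = 0.279, interval from -1.01 to 0.22). These intervals leave room for differences of 1.5-fold or more. ssc-let-7i-5p and ssc-miR-100 were not called in TPM and were called higher in IMF-8d after median-of-ratios scaling, by 0.68 and 0.73. ssc-miR-151-3p, ssc-miR-143-3p, ssc-miR-10b and ssc-miR-27b-3p were called with neither scaling.

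New entries produced the largest negative values. novel_miR_21 was at 128, 125 and 90.6 TPM in BF-8d and at 0.305, 0.401 and 1.23 TPM in IMF-8d, a 178-fold difference of the means (log2 fold change -6.16, SE 0.25, adjusted p = 1.34e-09). novel_miR_848 was at 49.1, 137 and 56.1 TPM against 0.0762, 0.134 and 0.307 TPM. The latter are 7 reads in the 3 libraries together, and the ratio of pooled reads, 429.6, has a counting interval from 208 to 1070.1. novel_miR_623, with 40.2, 43.5 and 25.8 TPM in BF-8d and 10 reads over IMF-8d, gave a ratio of 157 (84.7 to 328), novel_miR_744 with 6 reads over IMF-8d a ratio of 109 (49.8 to 299.8), and novel_miR_266 with 3 reads a ratio of 170.1 (57.7 to 829.6). In all 10 entries, these 5 and novel_miR_476, novel_miR_39, novel_miR_994, novel_miR_783 and novel_miR_236, 0 reads were counted in all day 0 libraries and in all IMF-2d and IMF-4d libraries. Of these, novel_miR_39, novel_miR_994 and novel_miR_236 also had 0 reads in all IMF-8d libraries, and their means in BF-8d were at least 35.7-fold, 34.2-fold and 27.6-fold higher than the worth of 3 reads per IMF-8d library. Since such entries reached the mean of 1 TPM only through the subcutaneous libraries in which they are high, their direction was fixed by the filter. Their number carries no weight, and their ratios and the p-value of novel_miR_21 are a description only. The last 5 of the 10 were named after their values were seen, as was novel_miR_793 below.

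The precursors of novel_miR_848 and novel_miR_623 each match Sscrofa11.1 at 1 place, at position 89873246 of chromosome 6 and position 27509168 of chromosome 4, the former opposite to an intron of CSMD2. novel_miR_1222, at 21.3, 67.6 and 34.5 TPM in BF-8d and 0.915, 0.468 and 1.31 TPM in IMF-8d, is of another kind: its mature sequence has 237 exact copies in the genome, so its reads cannot be assigned to a single place. Among new entries higher in IMF-8d, novel_miR_650 was the most abundant, at 554, 392 and 329.8 TPM in BF-8d and 1683, 1873 and 2130.4 TPM in IMF-8d (log2 fold change 2.18, SE 0.20, adjusted p = 1.32e-06). novel_miR_884 and novel_miR_1000 were at 29.7 TPM ± 3.71 (SD, n = 3) and 16.2 ± 2.88 (SD, n = 3) in IMF-8d against 4.53 ± 0.715 (SD, n = 3) and 2.89 ± 0.788 (SD, n = 3) in BF-8d.

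Of the 17 miRNAs that the study placed in its miRNA-mRNA networks, which were chosen on these samples and are no independent evidence of a direction, 2 were higher in IMF-8d, 3 were lower and 12 were not called, a called share of 29.4% where all entries gave 37.2%. The higher ones are ssc-miR-370 and ssc-miR-145-5p, described above. ssc-miR-210, a target of hypoxia signalling known to promote adipogenesis, was at 392, 503 and 598 TPM in BF-8d and 301, 213 and 260.4 TPM in IMF-8d (log2 fold change -0.94, SE 0.19, adjusted p = 0.00142). novel_miR_126 was at 8.10, 24.03 and 21.2 TPM against 1.98, 3.41 and 2.84 TPM, but its mature sequence occurs 3360 times in the genome. novel_miR_779 was lower as well (log2 fold change -1.10, adjusted p = 0.00126). The entries novel_miR_930, novel_miR_326, novel_miR_433 and novel_miR_1018 share a single mature sequence, and their adjusted p-values ran from 0.432 to 0.625. ssc-miR-214-3p was higher by 0.45 in TPM, under the fold criterion (adjusted p = 0.0321), and was called after median-of-ratios scaling. ssc-miR-185, ssc-miR-199a-5p, ssc-miR-339-5p, ssc-miR-615, ssc-miR-874, ssc-miR-6782-3p and novel_miR_667 were called with neither scaling.

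Markers of other cell types were measured because the cultures came from different tissues. In bulk samples fewer cells of a type and less RNA per cell cannot be told apart. Of 7 listed skeletal muscle miRNAs 3 were tested and none was called by limma, nor had any an unadjusted p under 0.05, while edgeR called ssc-miR-133a-3p higher in IMF-8d. ssc-miR-1 was at 1294, 1594 and 2324 TPM in BF-8d and 1145, 1595 and 943 TPM in IMF-8d (log2 fold change -0.49, adjusted p = 0.111). It was called lower without replicate 1 of BF-8d (adjusted p = 0.00882), without replicate 2 of IMF-8d (log2 fold change -0.70) and without replicate 1 of both groups. Of the markers outside the filter, ssc-miR-206, which myoblasts make, had 1 read in all BF-8d and 7 reads in all IMF-8d libraries. The summed level of this list ran from 1324 to 2362 TPM in BF-8d and from 982 to 1632 TPM in IMF-8d, so the groups overlapped. Of 9 blood, endothelial and immune markers 3 were tested and all were called, 1 higher and 2 lower, where 12.1% of all entries were higher and 25.1% lower. ssc-miR-126-3p, from an intron of the endothelial gene EGFL7, was at 48.6, 89.0 and 75.7 TPM in BF-8d and 34.1, 24.1 and 25.1 TPM in IMF-8d, and ssc-miR-126-5p was lower too, whereas ssc-miR-486, from ANK1 and abundant in red cells and muscle, was at 2.43 ± 0.580 TPM (SD, n = 3) against 6.27 ± 0.344 (SD, n = 3).

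The defining miRNAs of leukocytes and red cells were at or near 0 on day 8. ssc-miR-144 and ssc-miR-150 had 0 reads in all 6 libraries, ssc-miR-223 had 1 read in BF-8d and 0 in IMF-8d, and ssc-miR-451 had 8 and 17 reads. ssc-miR-142-3p, made by leukocytes of all kinds, had 19 reads in BF-8d and 22 in IMF-8d, and ssc-miR-142-5p had 7 and 6. This list summed to 55.2 to 94.7 TPM in BF-8d and 31.3 to 42.8 TPM in IMF-8d. Of the epithelial, liver and neural markers, ssc-miR-141, ssc-miR-205 and ssc-miR-429 had 0 reads in all 6 libraries, and ssc-miR-200b had 12 reads in each group. The 3 entries of miR-9, known from neural cells, hold the same values and were lower in IMF-8d, at 26.0, 21.3 and 20.7 TPM against 47.9, 51.8 and 55.9 TPM in BF-8d (log2 fold change -1.16, SE 0.18, adjusted p = 1.48e-04). ssc-miR-122-5p, the defining miRNA of liver cells, went the other way, at 3.74, 10.3 and 6.26 TPM in BF-8d and 14.9, 8.09 and 8.68 TPM in IMF-8d. Its groups overlapped, and it was not called in TPM (log2 fold change 0.61, adjusted p = 0.133) but was called higher after median-of-ratios scaling (0.87, adjusted p = 0.0299). The part of cells other than adipocytes in the differences of the other miRNAs was not tested.

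The next question was which differences of day 8 were present before induction. On day 0, 126 of the 430 entries were DE-miRNAs between IMF-0d and BF-0d (29.3%), 58 higher (13.5%) and 68 lower (15.8%). In common with day 8 and in the same direction were 37 higher entries, 71.2% of those of day 8 and 63.8% of those of day 0, and 24 lower entries, 22.2% and 35.3%. Opposite calls on the 2 days were given to 6 entries: ssc-miR-182, ssc-miR-183, ssc-miR-96-5p, ssc-miR-210 and novel_miR_793 were higher in IMF-0d and lower in IMF-8d, and ssc-miR-99a-3p the reverse. A call on one day and not on the other does not show that the difference changed, so the change itself was tested by limma as an interaction over the 12 libraries of both days. At an FDR under 0.05, 95 entries were called (22.1%), of which 32 shifted up in IMF relative to BF (7.44%) and 63 shifted down (14.7%). After median-of-ratios scaling 55 shifted up (12.8%) and 59 shifted down (13.7%), with all of the 32 and 59 of the 63 among them. Without replicate 1 of both groups of day 8, 28 shifted up and 73 down.

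Of the entries called alike on both days, 7 of the 37 higher and 1 of the 24 lower had a called change, and the others had none. Among those without a called change were several of the largest differences. ssc-miR-378 had 1097 TPM ± 228 (SD, n = 3) in BF-0d and 345 ± 63.0 (SD, n = 3) in IMF-0d, and the change of its difference was -0.029 on the log2 scale (SE 0.27, adjusted p = 0.957). ssc-miR-196b-5p was at 1.55 ± 0.324 (SD, n = 3) and 32.0 ± 4.98 TPM (SD, n = 3), with a change of 0.51 (SE 0.28, adjusted p = 0.195), and ssc-miR-381-3p, ssc-miR-127, ssc-miR-370, ssc-miR-218 and ssc-miR-10a-5p likewise had no called change. All 13 tested DLK1-DIO3 miRNAs were already higher on day 0, where 13.5% of all entries were higher, with a median log2 fold change of 1.91. Of the 13, 3 shifted further up, where 7.44% of all entries did. These were ssc-miR-411, ssc-miR-758 and ssc-miR-136-3p, by 1.17, 0.68 and 0.75.

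Other differences changed their sign. The polycistron of miR-183, miR-182 and miR-96 was higher in IMF-0d, where ssc-miR-183 was at 171 TPM ± 55.0 (SD, n = 3) against 69.0 ± 21.9 (SD, n = 3) in BF-0d, and the changes of difference were -3.44, -3.28 and -3.01 for ssc-miR-183, ssc-miR-182 and ssc-miR-96-5p (SE 0.35, 0.39 and 0.35, adjusted p = 6.92e-07, 4.10e-06 and 4.10e-06). The intramuscular mean of ssc-miR-183 was 171 TPM on day 0 and 173 TPM on day 8, while the subcutaneous mean was 69.0 and 788 TPM. ssc-miR-210 was at 17.8 ± 2.39 TPM (SD, n = 3) in BF-0d and 67.9 ± 8.60 (SD, n = 3) in IMF-0d, with a change of -2.81 (SE 0.27, adjusted p = 3.18e-07).

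Of the entries called on day 8 but not on day 0, a change was called for 8 of the 14 higher and 37 of the 79 lower, or 27 of 69 without the 10 entries at 0 reads on day 0. ssc-miR-29b was at 18.1 ± 5.74 TPM (SD, n = 3) in BF-0d and 28.4 ± 2.86 (SD, n = 3) in IMF-0d, and its difference shifted by -2.36 (adjusted p = 5.82e-06). ssc-miR-221-5p, ssc-miR-365-5p and ssc-miR-363 shifted by -2.35, -1.37 and -1.23, and ssc-miR-708-5p by 1.48. ssc-miR-138 was called lower on both days and its difference widened by -2.69 (adjusted p = 3.46e-06), while that of ssc-miR-146b narrowed from 2.90 to 1.06. Lower values on day 0 with no call on day 8 in TPM were seen for ssc-miR-146a-5p, at 179 ± 54.4 TPM (SD, n = 3) in BF-0d against 55.8 ± 4.06 (SD, n = 3) in IMF-0d with a shift of 2.00 (adjusted p = 1.59e-04), and for ssc-miR-99a-5p, at 4155 ± 944 TPM (SD, n = 3) against 1846 ± 409 (SD, n = 3) with a shift of 1.60. After median-of-ratios scaling both were called higher in IMF-8d, by 0.66 as given above and by 0.72 for ssc-miR-99a-5p (adjusted p = 0.00247). Of the 270 known miRNAs 31 shifted down and 27 up. Of the 160 new entries 32 shifted down and 5 up, but 10 of the 32 are the entries with 0 reads on day 0, whose direction the filter fixed, and without them 22 of 150 new entries and 53 of all 420 entries shifted down.

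**Figure D4:**
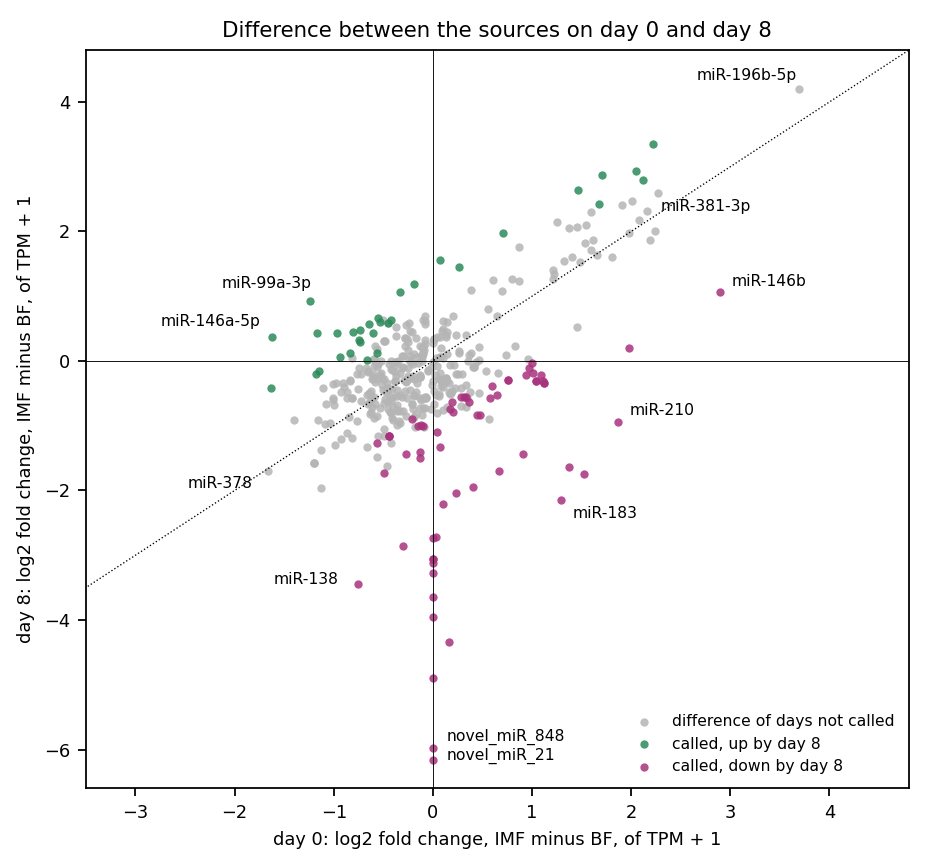
Log2 fold change of TPM + 1, IMF minus BF, on day 0 (horizontal axis) and day 8 (vertical axis) for the 430 entries, with entries whose difference changed between the days by the limma interaction test in green (up) and purple (down). Points on the dotted line have equal differences on the 2 days: ssc-miR-378 lies on it, and ssc-miR-183 lies at 1.30 on day 0 and -2.14 on day 8. A column of new entries with no reads on day 0, whose direction was fixed by the filter, reaches -6.16.

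**Figure D5:**
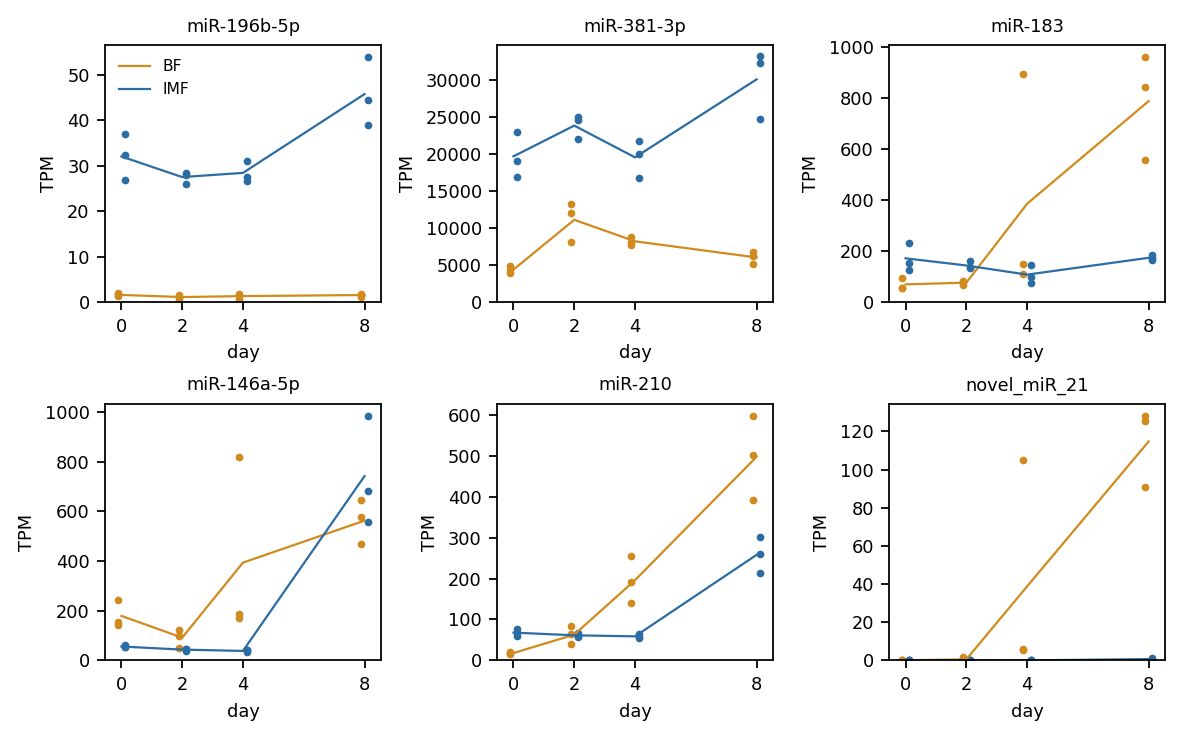
TPM by day in the 24 libraries (points) for 6 miRNAs, with lines through the group means, BF in orange and IMF in blue. ssc-miR-196b-5p and ssc-miR-381-3p are higher in IMF on every day, the lines of ssc-miR-183 and ssc-miR-210 cross between day 0 and day 8, those of ssc-miR-146a-5p start apart and are at 562 and 742 TPM on day 8, and novel_miR_21 is seen in 1 of 3 BF libraries on day 2 and in all 3 on days 4 and 8. On day 4 a single BF library stands apart in 3 panels. For ssc-miR-183, replicate 3 is at 894 TPM against 110 and 151 TPM in the other BF-4d libraries. For ssc-miR-146a-5p, replicate 3 is at 819.5 TPM against 188 and 172 TPM. For novel_miR_21, replicate 1 is at 105 TPM against 5.39 and 5.83 TPM.

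miRNAs encoded together were not called in opposite directions with either scaling. The counts that follow are those in TPM, where 12.1% of all entries were higher and 25.1% lower, 37.2% together. Among the 430 entries, 65 groups of 2 or more lie within 10000 bases of each other on the same strand, holding 179 entries. In 8 groups some members were higher in IMF-8d, in 26 some were lower, in 31 none was called, and in none were members called in opposite directions. The same held for the 44 seeds shared by 2 or more entries, 4 with higher, 23 with lower and 17 with no calls. After median-of-ratios scaling, however, 2 seeds had members called in opposite directions: ssc-miR-195 was higher (0.82) while ssc-miR-424-5p, with the same seed, was lower, and ssc-miR-92b-3p was higher (0.64) while ssc-miR-363 was lower. ssc-miR-195 and ssc-miR-92b-3p were named after their values were seen. Of 59 hairpins with both arms tested, both arms were called in the same direction in 9, opposite directions in none, and a single arm in 21. With few entries called higher, opposite calls would be rare in any case, so their absence carries little weight. Members of a cluster share a transcript and members of a seed family can share reads, so these counts are not independent of each other. The largest gap between arms called alike was that of miR-136, whose 3p arm differed by 2.42 and whose 5p arm by 1.41.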

How the data were processed

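Small RNA of cultured adipocytes was sequenced by the authors as single-end reads, matched to Sscrofa11.1 with Bowtie without mismatches, cleared of annotated tRNA, rRNA, snoRNA and snRNA, assigned to miRBase miRNAs by BLAST and to new miRNAs by miRDeep2, and tested with DESeq2. The deposited values are RPM, called TPM by the authors: each column sums to 1000000 over the 1587 entries. Whole reads were recovered from them, with 100% of the 38088 values within 0.01 of a whole number of reads. Reads outside the listed miRNAs were not analysed here.

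Only the 3 BF-8d and 3 IMF-8d libraries entered the main test, limma 3.58.1 under R 4.3.3, with the trend option of eBayes, applied to log2(TPM + 1) of the entries that averaged 1 TPM or more over all 24 libraries, calling an FDR (Benjamini-Hochberg) below 0.05 with more than a 1.5-fold change. The interaction used the 12 libraries of day 0 and day 8. For single miRNAs an exact permutation test (two-sided) cannot go below p = 0.1 with 3 libraries a group, the value of each entry without overlap. edgeR 4.0.16 and DESeq2 1.42.0 ran on the recovered reads as alternatives, since the deposited values are not counts. Precursors were placed by exact match to Sscrofa11.1, at 1 place for 331 of the 430 entries. The fits were tested on simulated data.

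Named are the 12 known miRNAs with the largest fold changes in each direction among DE-miRNAs of at least 10 TPM without overlap, the 10 most abundant, the DE-miRNAs among the 4 most abundant members of each list, all tested markers and network miRNAs, the 6 new entries with the largest fold changes and the 6 known miRNAs with the largest interactions in each direction, and partners by sequence, arm or cluster. The members, lists and rules were chosen with earlier results of these data known. Alternatives were another pseudocount, 3 other filters, median-of-ratios scaling, TPM without ssc-miR-21-5p, one fit of 24 libraries, the replicate block, edgeR, DESeq2, another call criterion, merged mature sequences and leaving out libraries. Matplotlib 3.10.9, SciPy 1.17.1, pandas 2.3.3 and NumPy 2.4.6 were used under Python 3.11.15.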

Additional observations from a re-analysis of the deposited data

Results flagged for a closer look

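Entries are given here whose difference between IMF and BF was not the same on day 0 and day 8, by the limma interaction test over 12 libraries at an FDR under 0.05, among the miRNAs with the largest differences, the most abundant ones and the study's network miRNAs. Each value is the log2 difference of IMF minus BF on day 8 minus that on day 0. Groups of 3 libraries are too small to test single libraries for distance from the rest.

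Shifts down were measured for the cluster members ssc-miR-183 (-3.44), ssc-miR-182 (-3.28) and ssc-miR-96-5p (-3.01), and for ssc-miR-210 (-2.81), ssc-miR-4332 (-2.75), ssc-miR-138 (-2.69), ssc-miR-29b (-2.36), ssc-miR-221-5p (-2.35), ssc-miR-365-5p (-1.37) and ssc-miR-363 (-1.23). New entries shifted down as well: novel_miR_21 by -6.16, novel_miR_848 by -5.97, novel_miR_623 by -4.89, novel_miR_1222 by -4.51, novel_miR_744 by -3.96 and novel_miR_266 by -3.65. Of these, all but novel_miR_1222 had 0 reads in every day 0 library and reached the limit of 1 TPM only through the subcutaneous libraries, so their direction was fixed by the filter and their values are a description only. Network entries that shifted down were novel_miR_126 (-2.32), novel_miR_667 (-1.16) and novel_miR_779 (-1.15), and the entries of a single mature sequence, novel_miR_326 and novel_miR_930 (-1.45 each), novel_miR_433 (-1.42) and novel_miR_1018 (-1.30), whose BF-8d libraries ranged from 0.807 to 4.21 TPM.

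Shifts up were measured for ssc-miR-99a-3p (2.16), ssc-miR-146a-5p (2.00), ssc-miR-99a-5p (1.60), ssc-miR-708-5p (1.48), ssc-miR-10383 (1.40), ssc-miR-335 (1.39), ssc-miR-214-3p (1.26), ssc-miR-27b-3p (0.99) and ssc-miR-185 (0.96), and in the DLK1-DIO3 region for ssc-miR-411 (1.17), ssc-miR-136-3p (0.75), ssc-miR-758 (0.68), novel_miR_638 (1.18), novel_miR_461 (1.13) and novel_miR_716 (0.90). ssc-miR-10383, encoded in an intron of IGF2, an imprinted growth factor gene, was at 2.98 TPM ± 0.798 (SD, n = 3) in BF-0d and 1.02 ± 0.134 (SD, n = 3) in IMF-0d, and had 0 reads in 2 of the 3 BF-8d libraries.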

How the results depend on the processing

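The 126 entries named or chosen by the rule kept their side of the criteria and their direction in 2162 of their recomputed values, 92 lost a call, 53 gained one and 43 changed sign, none of the last with a call in TPM. Of the 93 called ones, 75 were called in the same direction under every alternative in which they were tested, and some of these were not tested where a mean of at least 10 TPM was required. With a mean of at least 10 TPM required, fewer entries were tested, and 101 were called on day 8, 27 of them higher, with 51 called for a change since day 0, 21 up and 30 down. Median-of-ratios scaling gave 82 higher, 69 lower and 55 shifted up, edgeR 87 higher, 64 lower and 50 shifted up, DESeq2 68 lower and 53 shifted up, and TPM without ssc-miR-21-5p 69 lower and 37 shifted down. Why the counts moved was not tested beyond the shift of the median given above. Leaving out single libraries gave from 143 (without replicate 2 of IMF-8d) to 194 (without replicate 1 of BF-8d) DE-miRNAs, 49 to 55 higher and 94 to 139 lower, and 73 to 108 interaction calls, 25 to 37 up and 48 to 73 down. Entries without a call had log2 fold changes of the other sign under some settings, and the cause was not tested. In the order median-of-ratios scaling, edgeR and DESeq2, these were 0.032, 0.072 and 0.0090 for ssc-miR-10b, 0.034, 0.057 and 0.0019 for novel_miR_667, 0.13, 0.19 and 0.14 for ssc-miR-27b-3p, 0.19, 0.22 and 0.17 for ssc-miR-199a-5p, 0.28, 0.31 and 0.25 for ssc-miR-339-5p, and 0.17, 0.23 and 0.17 for ssc-miR-615. In TPM without ssc-miR-21-5p the last 4 had 0.0055, 0.067, 0.16 and 0.046. Without replicate 1 of both groups the values were -0.056 for ssc-let-7i-5p, -0.29 for ssc-miR-499-5p, -0.34 for ssc-miR-224, -0.16 for ssc-miR-185, 0.18 for novel_miR_1018, 0.068 for novel_miR_326 and novel_miR_930, and 0.13 for novel_miR_433. With single libraries left out, values ran from -0.17 to 0.17 for ssc-miR-499-5p, from -0.14 to 0.43 for ssc-miR-224, from -0.67 to 0.067 for novel_miR_1018, from -0.38 to 0.047 for novel_miR_667, from -0.030 to 0.27 for ssc-miR-185, from -0.34 to 0.054 for ssc-miR-199a-5p and from -0.19 to 0.26 for ssc-miR-339-5p.

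With the replicate number as a block, 162 entries were called, 51 higher and 111 lower, and 91 for the interaction. Libraries with the same number did not deviate together (r = -0.294, -0.00082 and -0.329 over entries), and no label ties a number to a piglet. The BF-8d libraries of replicates 2 and 3 are the shallowest, and differences of entries with a few reads are limited by counting.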
